A study of Rattus norvegicus with 4 samples.

Results

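The Vps, Chmp and Snx genes, which encode much of the machinery that sorts membrane proteins in endosomes, were examined in NR8383 cells, a rat alveolar macrophage line. Members were all genes whose rat symbol starts with Vps or Snx and a number, or with Chmp. Of 89 such symbols in the reference gene table, 12 of them pseudogenes, 64 were matched to a gene probe of the array by RefSeq accession, among 16581 named genes in all. The 64 genes had 82 of the 45598 gene probes. The 13 other symbols that are not pseudogenes (Chmp2b, Chmp4b, Snx5, Snx21, Snx25, Snx31, Snx32, Vps8, Vps13c, Vps13d, Vps37c, Vps41 and Vps51) and the pseudogenes were not analysed here. All 4 samples are cultures given titanium dioxide particles (NM105, a P25 mixture of anatase and rutile) at 3 cm2 of particle surface per cm2 for 4 h, each hybridised to 1 one-colour array. Cultures without particles are not analysed here: no value below is a response to the particles, and the 4 replicates, which the labels call biological, form 1 group.

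Endosomes sort what a cell takes in. Retromer, built of a Vps26 subunit with Vps29 and Vps35, and the related retriever return receptors from endosomes to the Golgi or the cell surface, often with sorting nexins, proteins that bind endosomal lipids through a PX domain. The ESCRT complexes gather ubiquitin-tagged receptors, and the Chmp proteins of ESCRT-III form filaments that cut vesicles off into the endosome, after which the Vps4 ATPases take the filaments apart. HOPS and CORVET tether endosomes to each other and to lysosomes before fusion, a late step in the delivery of phagocytosed material. Of these routes, those of ESCRT and HOPS lead to the lysosome, to which macrophages carry ingested particles and scavenger receptors.

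The arrays differed in brightness: for replicates 1 to 4, in that order, the 75th percentile of processed signal among the probes called on every array came to 1431, 585, 767 and 831 units. A probe is called detected here where Agilent's software marked its spots as well above background. Markers of the labelled cell type gave signal: 11 of 12 macrophage markers were detected on all 4 arrays and 1, Adgre1, on none. Of 6 epithelial markers and 3 T cell markers none was detected on any array, while 2 of 4 endothelial markers, Cdh5 and Vwf, were detected on all 4. Of the other lists, 4 of 6 alveolar macrophage markers were detected on all 4 arrays, without Marco and Car4, as were 0 of 5 fibroblast markers and 0 of 2 B cell markers.

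Every measured gene of retromer, retriever and HOPS was detected, and sorting nexins were detected in part. Of the 64 members, 42 (65.6%) passed on all 4 arrays, 11 passed on 1 to 3 arrays and 11 on none, beside 35.2% of all named genes on all 4 and 53.7% on none. All 4 retromer genes were detected on all arrays, as were both retriever genes, Vps26c and Vps35l, and all 6 measured genes of HOPS and its relatives (Vps11, Vps16, Vps18, Vps33a and Vps39, with Vps33b of a related complex). Of 10 measured ESCRT-III genes 8 were detected on all 4 arrays and 2, Chmp1b2 and Chmp4c, on none. Of 25 sorting nexins 12 were detected on all 4 arrays, 7 on part of them and 6 on none. These counts are descriptions, and the differences between the role groups were not tested. RNA came from whole cultures, in which fewer expressing cells and less RNA per cell cannot be told apart.

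**Figure D1:**
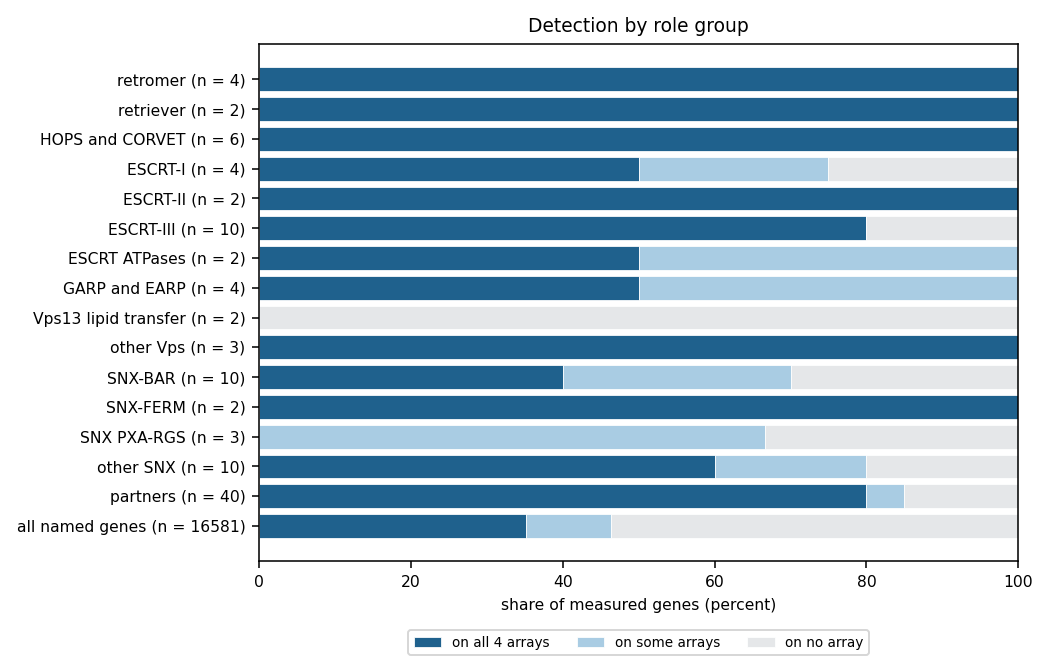
Share of the measured genes (percent, horizontal axis) of each role group that were detected on all 4 arrays, on some or on none, with the number measured in brackets. Retromer, retriever, HOPS and CORVET, ESCRT-II, SNX-FERM and the other Vps genes reach 100% on all 4 arrays, beside 35.2% of the 16581 named genes.

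Near their start sites 5 members share a short sequence. A window of 250 bases before and 50 after the annotated start was held for 49 of the 64 measured members (RefSeq, GRCr8). The palindrome TCACGTGA, which reads the same on both strands and lies at the centre of the CLEAR element bound by TFEB, a regulator of lysosomal genes, was in the windows of 5 of these 49 genes, beside 0.896% of 27457 genes with a window and 2.01% of 4929 genes with a window that were detected on all 4 arrays. The 5 genes were Vps11, Vps16 and Vps33a of HOPS, Vps26a of retromer and Snx2, and all 5 were detected on all 4 arrays, as were 32 of the 49 genes. It was in 3 of the 6 windows of HOPS and its relatives, Vps33b included. The shorter CACGTG, which every TCACGTGA contains, was in 11 of 49 windows, beside 7.08% of all genes and 10.6% of the detected ones. The ETS-type motif CCGGAAG was in 17 of the 49 windows, beside 9.63% of all genes and 22.2% of the genes detected on all 4 arrays. The GC box GGGCGG was in 30 windows (61.2%), beside 36% of all genes and 64.7% of the detected ones, and the CCAAT box in 14, beside 39.6% and 41.0%. The TATA box TATAAA was in 2 windows, beside 15.3% of all genes and 7.16% of the detected ones. The cyclic AMP response element TGACGTCA was in 3, beside 2.00% and 3.33%, and the NRF1 motif in 1, beside 0.954% and 2.21%. All 8 motifs were searched on both strands and chosen with the members known, no test was made, and a match is only a match of letters. The 5 stretches below, shown because they hold the palindrome, run from 150 bases before the start to 10 bases from it on, 5′ to 3′ on the strand of the gene, with TCACGTGA in capitals. They lie in GRCr8 at chr20:30976880-30977039 (minus strand) for Vps26a, chr8:53595368-53595527 (minus) for Vps11, chr3:138075560-138075719 (plus) for Vps16, chr12:38685374-38685533 (plus) for Vps33a and chr18:48800444-48800603 (plus) for Snx2.
Vps26a: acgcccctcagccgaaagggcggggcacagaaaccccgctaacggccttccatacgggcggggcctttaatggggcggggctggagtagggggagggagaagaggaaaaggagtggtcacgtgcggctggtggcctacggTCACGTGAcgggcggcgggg
Vps11: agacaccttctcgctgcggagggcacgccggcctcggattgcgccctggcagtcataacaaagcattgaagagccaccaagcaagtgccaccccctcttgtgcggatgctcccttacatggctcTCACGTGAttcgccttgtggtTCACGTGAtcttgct
Vps16: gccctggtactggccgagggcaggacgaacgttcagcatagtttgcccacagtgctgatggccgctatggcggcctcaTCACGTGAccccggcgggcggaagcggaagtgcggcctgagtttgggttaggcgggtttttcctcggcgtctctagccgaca
Vps33a: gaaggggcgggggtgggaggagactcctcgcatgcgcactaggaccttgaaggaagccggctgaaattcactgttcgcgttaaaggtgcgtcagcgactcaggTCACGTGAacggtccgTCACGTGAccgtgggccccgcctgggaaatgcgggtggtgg
Snx2: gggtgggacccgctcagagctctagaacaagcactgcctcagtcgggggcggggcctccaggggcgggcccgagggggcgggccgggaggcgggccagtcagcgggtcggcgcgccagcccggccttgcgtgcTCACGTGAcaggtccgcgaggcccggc
Vps11 and Vps33a each hold 2 copies and the other genes 1. The first base of the copy nearest the start lies 10 bases before it in Vps26a, 5 in Vps11, 72 in Vps16, 31 in Vps33a and 17 in Snx2.

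The retromer core was detected throughout, and Vps35 had the highest SD of the 42 detected members with the scaling used here. Levels below are log2 signal relative to that array's 75th percentile given above, and levels of different genes cannot be compared, since each probe has its own brightness. Vps35, the scaffold of the complex, was at −3.44, −4.79, −4.65 and −5.18 on replicates 1 to 4, with processed signals of 132, 21.1, 30.5 and 23.0 intensity units. Replicate 1 was high and the other 3 lay close together. Its SD was 0.75, beside a median of 0.181 between repeated spots of 1 probe at such low levels. Its highest array lay 3.34-fold above its lowest, the only member of 42 past 2-fold, beside 8.96% of all detected genes. That fold was 1.44 without replicate 1, and 1.29 after normexp background correction, where replicate 2 was the highest. Its SD was then no longer the highest of the members: after normexp it was 0.17, beside 0.52 for Snx27, and without replicate 1 it was 0.27, beside 0.50 for Vps45. The cause of the difference was not tested.

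Vps26a, a subunit that binds cargo adaptors, was at −3.03, −3.38, −3.65 and −3.52 on replicates 1 to 4. Its paralog Vps26b was at −2.06, −2.70, −2.25 and −2.25. Both were highest on replicate 1 except after normexp correction, where Vps26a was highest on replicate 2 and Vps26b on replicate 4. Vps29, a subunit that binds regulators of the complex, was at −0.13, −0.14, 0.16 and 0.12, with an SD of 0.16 and replicates 3 and 4 slightly above the other two. In retriever, Vps35l averaged −0.69 ± 0.10 and Vps26c −1.50 ± 0.18 (SD, n = 4). Over the 4 retromer genes the median SD was 0.270, beside 0.225 over all detected genes. Of the 4 genes, 3 had their highest level on replicate 1, beside 37.8% of all detected genes. After normexp correction Vps35 and Vps26a were highest on replicate 2, and Vps26b and Vps29 on replicate 4.

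With the scaling used here, the 6 HOPS-type genes had their highest levels on different arrays. Vps33b, which pairs with Vipas39 rather than with HOPS, had the highest SD, 0.35, at −2.80, −3.59, −3.49 and −3.29 for replicates 1 to 4, highest on the first, with a fold between its highest and lowest array of 1.72, and 1.08 after normexp correction. Vps11, a core subunit of HOPS and CORVET, had the lowest SD, 0.15, at −2.12, −2.04, −2.40 and −2.21. Vps39, the HOPS subunit that in yeast binds the Rab7 homologue, was at −4.60, −4.15, −4.08 and −4.15, lowest on replicate 1 under every scaling and correction tried. Vps33a, the SM protein that helps SNARE proteins assemble for fusion, averaged −1.94 ± 0.29, and Vps18 and Vps16 averaged −1.73 ± 0.30 and −4.99 ± 0.26 (SD, n = 4). Of the 6, replicate 1 was the highest array for 2, replicate 2 for 3 and replicate 3 for 1. Over all detected genes the shares were 37.8%, 28% and 19.1% on replicates 1 to 3. The median SD was 0.279, and 0.165 without replicate 1. After normexp correction the highest array was replicate 2 for Vps16 and Vps39 and replicate 3 for Vps33a. The SDs of Vps11, Vps16 and Vps39 lay below the 95th percentile of the SD between repeated spots at their levels (0.232, 0.364 and 0.364). Those of Vps18, Vps33a and Vps33b lay above it.

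**Figure D2:**
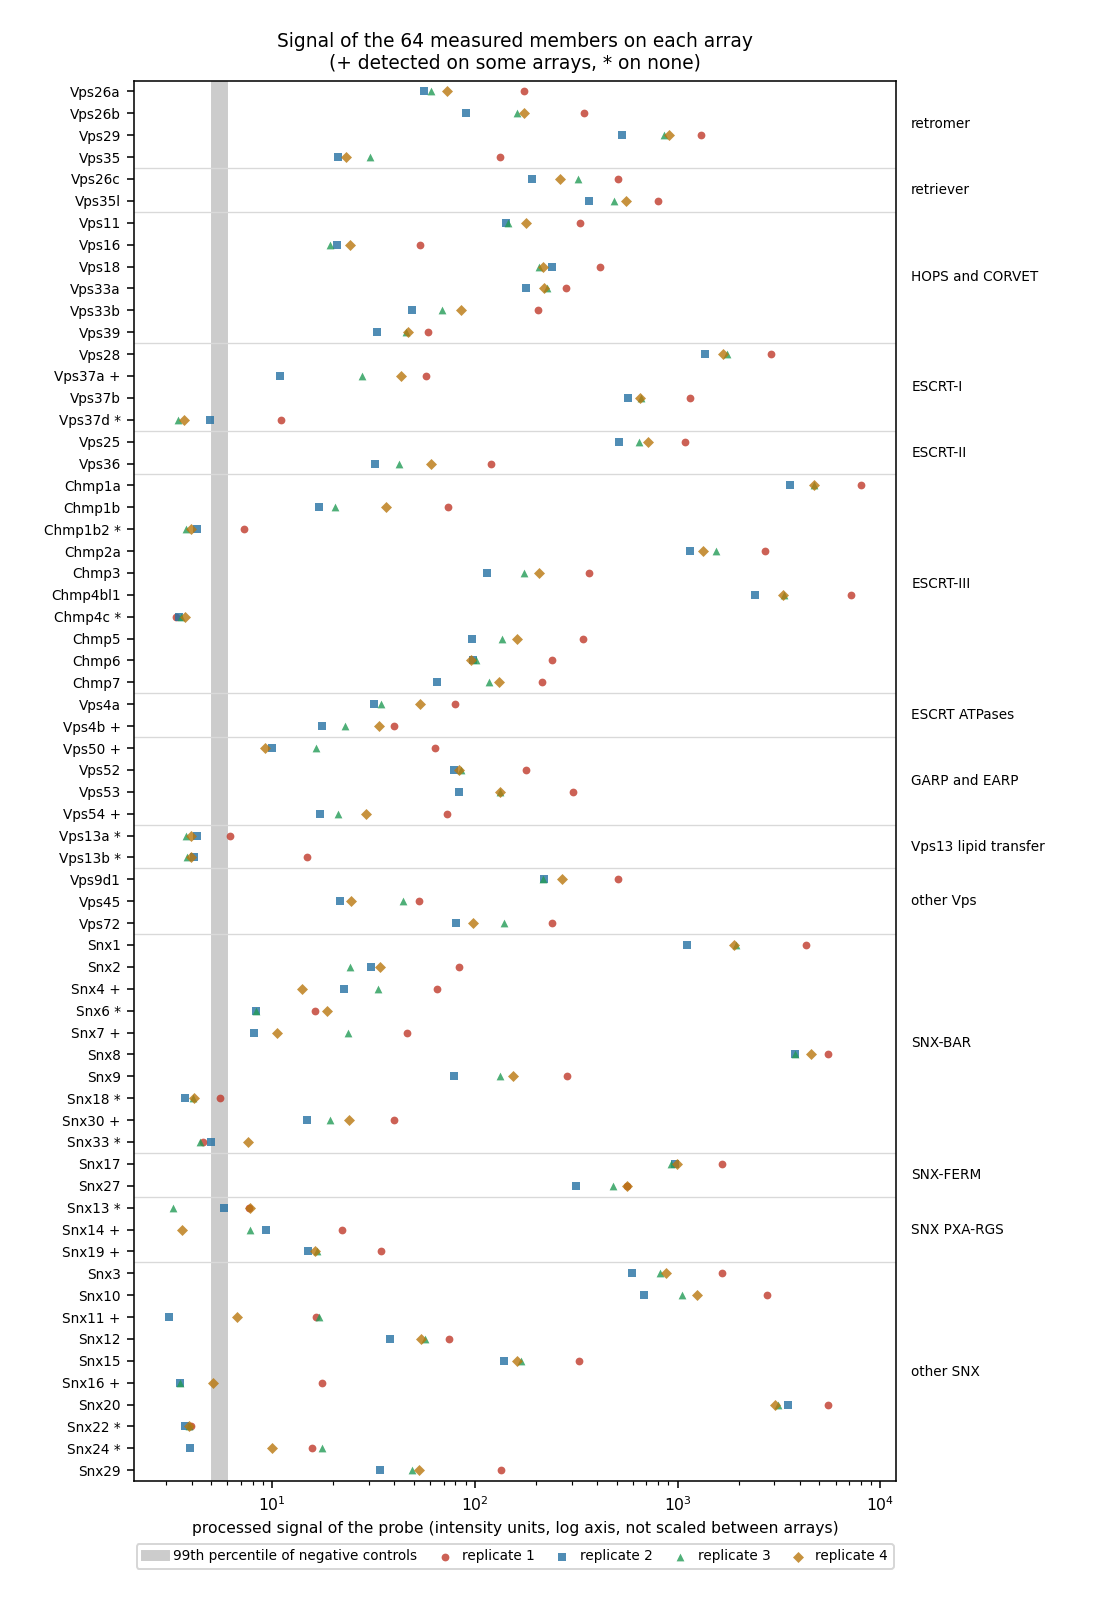
Processed signal (intensity units, log axis, not scaled between arrays) of the 64 measured members on the 4 arrays, 1 marker per replicate, with genes down the page by role group. Where a gene has several probes the one behind its level is shown, or the brightest. A plus marks genes detected on some arrays and a star those detected on none. The grey band spans the 99th percentiles of the negative controls, 5.07 to 5.96 units, and Snx6, though starred, lies above it on each array.

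ESCRT-III, the vesicle-cutting module, held members with little and with much spread between arrays. Chmp1a, which with its paralogs helps recruit Vps4, was at 2.49, 2.62, 2.61 and 2.50 on replicates 1 to 4, with an SD of 0.07, the lowest of the group, beside a median of 0.0742 between repeated spots of a probe at such levels. The SD of Chmp1a was 0.11 with scaling to the median of detected probes and 0.13 with scaling to the 75th percentile of all probes, and under both, and after normexp correction, that of Chmp4bl1 was lower. Its paralog Chmp1b had the highest SD of the group, 0.46, at −4.28, −5.10, −5.24 and −4.52. Replicates 1 and 4 were above the other two, and after normexp correction the fold between its highest and lowest array was 1.25 in place of 1.95. At levels as low as that of Chmp1b, repeated spots of a probe had a median SD of 0.181. All detected genes at such levels had a median SD over the arrays of 0.303. A second probe for the same Chmp1b transcript was not detected on any array, and near-copies such as Chmp1b2 may share signal with it. Chmp7, known for its part in sealing the nuclear envelope, was at −2.74, −3.17, −2.72 and −2.66, low on replicate 2. Chmp2a averaged 0.89 ± 0.15, Chmp3 −2.11 ± 0.17, Chmp5 −2.38 ± 0.23 and Chmp6, which links ESCRT-II to ESCRT-III, −2.80 ± 0.27 (SD, n = 4). Chmp4bl1, a gene named for its likeness to Chmp4b, averaged 2.12 ± 0.15. Whether its probes also read Chmp4b was not tested, so the signal may belong to either. The median SD of the 8 genes was 0.203.

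The ESCRT steps before and after showed signal in most genes. Vps28 and Vps37b of ESCRT-I averaged 1.11 ± 0.11 and −0.24 ± 0.14, and Vps25 and Vps36 of ESCRT-II −0.27 ± 0.09 and −3.93 ± 0.31 (SD, n = 4). Vps37a was detected on 3 arrays and Vps37d on none. Of the 2 ATPases, Vps4a averaged −4.20 ± 0.22 and Vps4b was detected on 3 arrays, with processed signals of 39.7, 17.6, 22.7 and 33.8 units on replicates 1 to 4.

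Among sorting nexins with a BAR domain, which bend membranes, 4 of 10 were detected on all 4 arrays, 3 on part of them and 3 on none. Snx1 and Snx2 are among the nexins that work with retromer, and both were detected on all 4 arrays. Snx2 had the highest SD of the group, 0.39, at −4.11, −4.26, −4.99 and −4.61 on replicates 1 to 4, with its highest array, replicate 1, giving way to replicate 2 after normexp correction, under quantile normalization and with scaling to the 75th percentile of all probes. Their usual partner Snx6 was not called on any array, at 16.3, 8.31, 8.36 and 18.6 units, although each value exceeded the negative controls' 99th percentile for its array. Snx9, which acts with dynamin at the cell surface, had the lowest SD, 0.25, at −2.32, −2.89, −2.53 and −2.44, low on replicate 2. Snx8 averaged 2.35 ± 0.31 (SD, n = 4) and was lowest on replicate 1 and highest on replicate 2 under every scaling and correction tried. Snx1 averaged 1.26 ± 0.28. Snx18 and Snx33, relatives of Snx9, were not detected on any array.

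Both measured nexins with a FERM domain, which recognise sorting signals in the tails of receptors, were detected. Snx27, which carries receptors with a PDZ-binding tail into the retromer pathway, was at −1.35, −0.90, −0.67 and −0.56 on replicates 1 to 4. It was lowest on replicate 1 and highest on replicate 4 under every scaling and correction tried, and the fold between them, 1.73, was 2.27 after normexp correction. Snx17, which works with retriever, was at 0.21, 0.73, 0.27 and 0.26, high on replicate 2 alone. None of the 3 measured nexins with a PXA domain was detected on all 4 arrays. Snx14 and Snx19 were detected on replicate 1 only and Snx13 on none.

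Of the 10 other nexins 6 were detected on all 4 arrays. Snx3, a retromer adaptor made of little more than a PX domain, had the lowest SD, 0.08, at 0.21, 0.03, 0.10 and 0.08. Snx20, which is found in leukocytes and binds the adhesion receptor PSGL-1, had the highest, 0.32, at 1.94, 2.58, 2.03 and 1.87, with replicate 2 high under every scaling and correction tried. Snx10, known for its need in bone-resorbing osteoclasts, averaged 0.55 ± 0.31, Snx12 −3.98 ± 0.21, Snx15 −2.19 ± 0.13 and Snx29 −3.87 ± 0.31 (SD, n = 4). Over the 12 detected nexins the median SD was 0.290, and 0.190 without replicate 1.

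The remaining Vps genes serve other routes. Of 4 measured genes of GARP and EARP, tethers for endosome-derived vesicles, Vps52 and Vps53 averaged −3.09 ± 0.18 and −2.55 ± 0.24 (SD, n = 4), Vps54 was detected on 3 arrays and Vps50 on replicate 1 only. The lipid transfer genes Vps13a and Vps13b were not detected on any array. Vps45, an SM protein of early endosomes, was at −4.75, −4.75, −4.11 and −5.09, so its highest array lay 1.97-fold above its lowest, and replicate 3 was the highest under every scaling and correction tried. Vps9d1, named for a domain that activates Rab5-type GTPases, averaged −1.59 ± 0.17. Vps72 averaged −2.75 ± 0.28. Its product belongs to chromatin remodelling complexes and only its symbol places it here.

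Members detected on part of the arrays were found most often on the brightest one. All 11 (Snx4, Snx7, Snx11, Snx14, Snx16, Snx19, Snx30, Vps4b, Vps37a, Vps50 and Vps54) passed on the brightest array, replicate 1. On replicate 3, 7 of them passed, on replicate 4, 4 passed, and the dimmest array, replicate 2, detected Snx4 alone. Among all 1855 named genes with such partial detection, replicate 1 detected 92.7%, replicate 3 38.0%, replicate 4 37.0% and replicate 2 7.98%. Snx4 passed on replicate 2 but not on replicate 4, which was brighter. Snx7 and Snx11 passed on replicate 3 but not on replicate 4, which was slightly brighter by the 75th percentile given above. These misses on replicate 4 did not follow the 75th percentile of the arrays. Counted by detected probes, replicate 4 (11911) fell below replicate 3 (12038) but above replicate 2 (10809). Its negative controls also had the highest 99th percentile, 5.96 units, beside 5.07 for replicate 3. The misses of Snx7 and Snx11 thus followed the count of detected probes, while that of Snx4 did not. The cause of these misses was not tested. The other misses in these 11 genes cannot be told apart from the brightness of the array. Under a looser rule, signal past the negative controls' 99th percentile, 51 members passed on all 4 arrays, beside 44.4% of all named genes.

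The median SD of the 42 detected members was 0.244, and that of all 5824 detected genes with a level was 0.225. By level, the 7 members below −4 had a median SD of 0.392 (all genes 0.303), the 16 from −4 to −2 had 0.244 (0.260), the 8 from −2 to 0 had 0.178 (0.202) and the 11 at 0 and above had 0.162 (0.179). Repeated spots of 1 probe on an array had a median SD of 0.181, 0.114, 0.0851 and 0.0742 in these 4 ranges of level. At a 1.5-fold minimum 17 of 42 members were past it, beside 38.8% of all detected genes, a share close to the background. After normexp correction the median SD of the members was 0.150 (all genes 0.183).

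**Figure D3:**
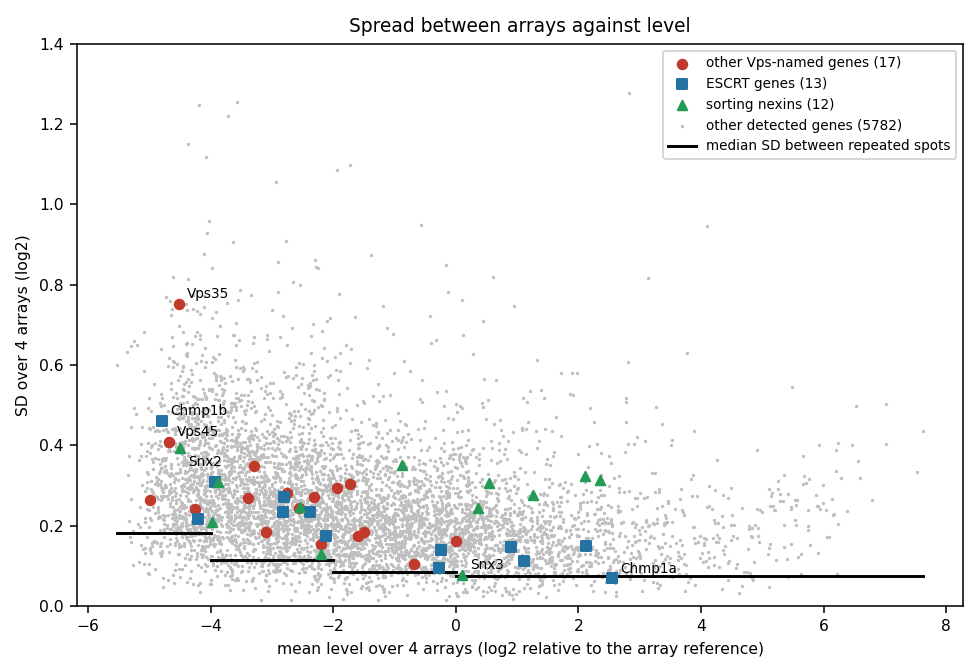
SD over the 4 arrays (log2, vertical axis) against mean level (log2 relative to the array reference, horizontal axis) for the 42 detected members, coloured by family, and the other detected genes in grey. Black lines give the median SD between repeated spots of a probe in 4 ranges of level. Vps35, at 0.75, stands highest among the members, and Chmp1a and Snx3 lie at the line for repeated spots.

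Where the role groups lay on an array depended on the processing. The deviation of a gene on an array is its level minus its mean over the 4 arrays. On replicate 1 the median deviation was 0.08 over the 42 members, 0.31 over retromer, 0.17 over ESCRT-III, 0.08 over the sorting nexins and 0.00 over the HOPS-type genes, beside 0.06 over all detected genes. After normexp correction each of these 5 member medians was below 0 on replicate 1, from −0.19 for HOPS to −0.02 for retromer. That setting changes the background method, adds an offset and starts from the median signal. The offset was 50 units on every array, while the 75th percentiles of processed signal ran from 585 units on replicate 2 to 1431 on replicate 1. Which of these changes matters was not tested. With scaling to the 75th percentile of all probes the medians over all members and over the nexins were also below 0. Medians over all detected genes under these settings are not given here, so a shift shared with all genes cannot be told apart. On replicate 2 the medians were 0.00 over all members, −0.21 over retromer, −0.15 over ESCRT-III, 0.01 over the nexins and 0.17 over HOPS, beside −0.01 over all detected genes. Replicate 1 held the highest level of 18 members (37.8% of all detected genes) and the lowest of 9 (25%), and replicate 2 the highest of 13 (28%) and the lowest of 13 (32.2%). Replicate 3 held the highest of 7 members (19.1% of all detected genes) and the lowest of 7 (22.2%), and replicate 4 the highest of 4 (15.1%) and the lowest of 13 (20.6%). The highest array changed for 20 of the 42 members after normexp correction and for 7 under quantile normalization. Under every scaling and correction tried 9 of the 42 kept both their highest and their lowest array: Snx1, Snx8, Snx12, Snx27, Vps9d1, Vps11, Vps26c, Vps35l and Vps72. A second probe of Snx1 was highest on replicate 4 instead of replicate 1. The same shares over all detected genes are not given here. Whether members kept their order more or less often than other genes was therefore not tested.

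**Figure D4:**
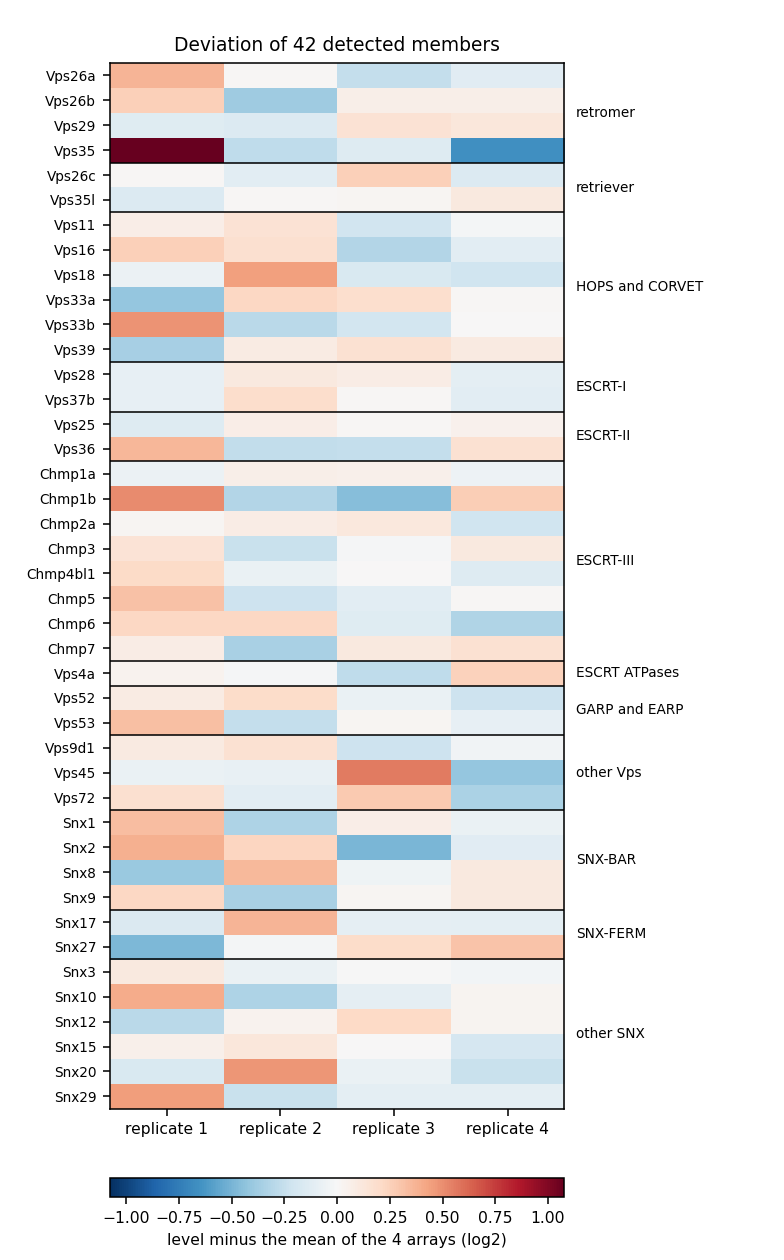
Level on each array minus the mean of the 4 arrays (log2, colour) for the 42 detected members, with genes down the page by role group and replicates across. Red is above and blue below the gene's own mean. Vps35 on replicate 1 is the darkest cell, and genes of 1 role group can differ in sign on the same array, as Vps33a and Vps33b do on replicate 1.

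Probes of the same gene sometimes ranked the arrays differently. Of the 16 members with several probes, 6 had more than 1 detected on all 4 arrays. For Snx10 the brighter probe was at 0.95, 0.22, 0.45 and 0.58 on replicates 1 to 4, highest on replicate 1. The other probe, designed on another transcript, was at −1.92, −1.89, −1.63 and −1.48, lowest on replicate 1. For Snx1 both probes belong to 1 transcript, and the brighter was highest on replicate 1, at 1.59, while the other was highest on replicate 4. For Chmp3 the brighter probe was highest on replicate 1, with an SD of 0.173. Its other probe, designed on another transcript, was highest on replicate 3, with an SD of 0.395. For Vps26a both probes were highest on replicate 1, with deviations up to 0.315 apart on an array. The 2 probes of Vps52 followed each other, with deviations never more than 0.149 apart on an array, as did those of Chmp4bl1, at most 0.119 apart. For Snx29 1 probe was detected on all 4 arrays and the other, for another transcript, on none, at 4.07 to 5.28 units. For Snx27 both probes belong to 1 transcript, and 1 of them was not detected on any array. Each gene's level above is that of its brightest probe detected on all arrays.

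Most genes that work with the members also gave signal. Of 40 measured partners on a list of such genes, 32 (80%) were detected on all 4 arrays, 2 on part of them and 6 on none. Among those detected were Hgs of ESCRT-0 at 2.37 ± 0.25, Snf8 of ESCRT-II at 1.33 ± 0.12, Ist1 of ESCRT-III at −0.14 ± 0.08 and the receptor gene M6pr, whose product retromer returns to the Golgi, at 1.01 ± 0.23 (SD, n = 4). Tsg101 of ESCRT-I, Rab5a and the sorting receptor gene Sorl1 were among those not detected. Vta1, a cofactor of Vps4, was at −3.16, −1.76, −1.72 and −1.73, low on replicate 1. Rab7a, the late endosomal GTPase that helps recruit retromer, was at −4.41, −3.70, −2.86 and −3.38, also lowest on replicate 1. These were the only 2 of 32 partners past 2-fold, beside 8.96% of all detected genes. The median SD of the partners was 0.228.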

How the data were processed

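The deposited files hold spot intensity from Agilent Feature Extraction 11.0.1.1, protocol GE1_1100_Jul11, per the file headers. The processed intensity is background-subtracted within the array by the authors' software and was not normalized between arrays. The arrays share 1 slide and 1 scan. No spot was saturated and no member spot was marked as an outlier.

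Control and outlier spots were left out, log2 values of repeated spots were averaged per probe, and levels were taken relative to the 75th percentile of the probes detected on every array, since only 22.9% of probes were. Accessions without version were matched to a GRCr8 gene table (21109 of 45598 probes). A gene was detected where any of its probes was. The members and lists were chosen with earlier results of these data known. Values on each array are given for retromer genes, for the highest and lowest SD in HOPS, ESCRT-III and each nexin group, and for members with 1 outlying array. Vps45, Snx1, Snx10, Vps4b, Snx6, Vta1 and Rab7a were added after their values were seen. The planned limma test between arrays needs repeated spots, and 0 of 82 member probes had more than 1, so it was not run and no p-value is given. Alternatives were normexp (limma 3.58.1 in R 4.3.3, offset 50, on the median signal), quantile normalization, other scaling, the mean over probes, no filter, 3 other detection rules (signal past the negative controls' 99th percentile, every spot well above background, the brightest probe only) and each replicate left out. The rest ran in Python 3.11.15 (pandas 2.3.3; numpy 2.4.6; figures by matplotlib 3.10.9) and was tested on simulated data. The number of arrays limits the precision.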

Additional observations from a re-analysis of the deposited data

Results flagged for a closer look

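Each of the 42 detected members was checked for 1 array far from the other 3, by the gap between that array and the nearest other as a share of the gene's whole range. The share was 0.837 for Chmp7, which was low on replicate 2, 0.887 for Snx17, which was high on replicate 2, and 0.855 for Vps39, which was low on replicate 1. Chance flags about 1 in 20 genes, and 3 of 42 (7.14%) were flagged here. After normexp correction Chmp7 was lowest on replicate 1, with a fold of 1.07 between its highest and lowest array in place of 1.42. Snx17 stayed highest on replicate 2 and Vps39 lowest on replicate 1 under every scaling and correction tried. The gap shares under these other settings are not given here. Vps39 had signals of 32.9 to 58.8 units, close to the normexp offset of 50. Its SD of 0.241 lay below 0.364, the 95th percentile of the SD between repeated spots at such levels. For Snx17 these values were 0.244 and 0.132, and for Chmp7 0.234 and 0.232.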

How the results depend on the processing

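Counts of members detected on all 4 arrays, overall and for retromer, HOPS, ESCRT-III and the sorting nexins, stayed within 1.5 times of those reported under the 3 other detection rules (42 to 51 members overall) and with each replicate left out (42 to 46). After normexp correction the median SD was 0.150 over all members, 0.147 over retromer, 0.120 over ESCRT-III and 0.182 over the nexins. With single replicates left out it spanned 0.165 (without replicate 1) to 0.315 for HOPS and 0.190 (without replicate 1) to 0.338 for the nexins. The count past 2-fold spanned 0 (without replicate 1) to 1, over all members and over retromer, with 1 replicate left out. Of all detected genes, 2.21% (without replicate 1) to 7.79% (without replicate 3) were then past 2-fold. With no filter on dim probes it was 15 of 64 members, 1 over ESCRT-III and 10 over the nexins, beside 52.8% of all named genes. At a 1.5-fold minimum in place of 2-fold the count was 17 of 42 members, beside 38.8% of all detected genes. It was 3 over retromer, 3 over HOPS, 1 over ESCRT-III and 7 over the nexins. After normexp correction the count past 2-fold was 0 over retromer and 1, Snx27, over the nexins, beside 4.84% of all detected genes.

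After normexp correction the median deviation on replicate 1 was −0.0515 over all members, −0.0222 over retromer, −0.185 over HOPS, −0.0390 over ESCRT-III and −0.0720 over the nexins. On replicate 2 it was 0.137 over all members, 0.0155 over retromer, 0.0254 over ESCRT-III and 0.143 over the nexins, and on replicate 3 it was −0.0222 over HOPS. With scaling to the median of detected probes it was 0.00519 over all members and 0.00276 over the nexins on replicate 1. With scaling to the 75th percentile of all probes it was −0.0173 over all members and −0.0197 over the nexins on replicate 1, and on replicate 2 it was 0.0906 over all members and 0.0955 over the nexins. With single replicates left out it spanned, over the nexins, −0.0499 to 0.0475 on replicate 2, −0.0382 to 0.0346 on replicate 3 and −0.0375 to 0.00750 on replicate 4. The causes were not tested, and medians over all detected genes under these settings are not given here. No paired analysis was possible because all samples belong to 1 group. The planned limma test between arrays was not run, since each member probe has 1 spot per array. Members below a level of −4 lie nearest to the background.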
